A study of Glycine max with 3 samples.

Results

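A group of 114 soybean (Glycine max) gene models was abundant in suspensor and seed coat parenchyma and low in the embryo proper. The members were chosen by their measured levels, out of 66210 gene models listed for each library. A level is given as CPM, the reads of a gene model for each 1000000 reads of its library, with no other scaling. A member reached at least 40 CPM in each of suspensor and seed coat parenchyma. Its CPM + 1 in each of these was at least 4 times that in the embryo proper, and its suspensor to seed coat ratio of CPM + 1 lay between 0.25 and 4. These values chose the members, so the levels and ratios below describe the group and test nothing.

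The suspensor is the short-lived stalk of the young embryo. It anchors the embryo proper, passes nutrients from maternal tissue to it and, in several legumes, makes gibberellins and other growth regulators, before its cells die. The seed coat is maternal tissue. Its parenchyma lies between the vascular bundles and the embryo, receives sugars and amino acids unloaded from the phloem and releases them toward the embryo. The embryo proper gives rise to the seedling.

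The 3 libraries came from 1 cultivar, Asgrow A3237, and each was 1 sample of laser-captured tissue with no replicate. The embryo proper and the suspensor region were cut from globular-stage embryos in sections 6 µm thick, and the seed coat parenchyma layer from early maturation-stage seeds in sections 8 µm thick, on another instrument. For the seed coat library, tissue cannot be told apart from stage, section thickness or instrument. The libraries held 11603055 (embryo proper), 8365831 (suspensor) and 11894273 (seed coat) reads assigned to gene models. The level of 40 CPM stood for 464, 335 and 476 reads, in that order. No difference below has a replicate check, and the 95% intervals beside ratios cover counting error only. The files give identifiers without gene names, and none of the 66210 was paired with a name in the reference table used, so no role can be given to any member and the labelled tissues could not be checked against marker genes. Gene lengths were not available either, so the order of gene models by CPM is an order of reads, not of transcripts.

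Across the 114 members, the embryo proper level ran from 0 to 125 CPM with a median of 8.83 CPM. The suspensor level ran from 40.9 to 1078 CPM with a median of 80.1 CPM. The seed coat level ran from 40.4 to 1035 CPM with a median of 84.2 CPM. The median level of the group was thus nearly the same in the suspensor and the seed coat parenchyma and about an order of magnitude lower in the embryo proper. Because the cells of each captured region were sequenced together, fewer cells that express a gene and less RNA per cell cannot be told apart.

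On the log2(CPM + 1) scale the median difference of the members was 2.91 for suspensor over embryo proper, 2.96 for seed coat over embryo proper and -0.09 for suspensor over seed coat. Over all 2515 gene models that reached 40 CPM in the suspensor and the seed coat parenchyma, the same medians were 0.13, 0.13 and 0.00. Of these 2515, 4.53% met the whole rule. The 4-fold step over the embryo proper alone was met by 220 (8.75%) in the suspensor and by 230 (9.15%) in the seed coat parenchyma, and 126 met it in both. The band on the suspensor to seed coat ratio then left out 12 of the 126, of which 5 leaned to the suspensor and 7 to the seed coat.

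**Figure D1:**
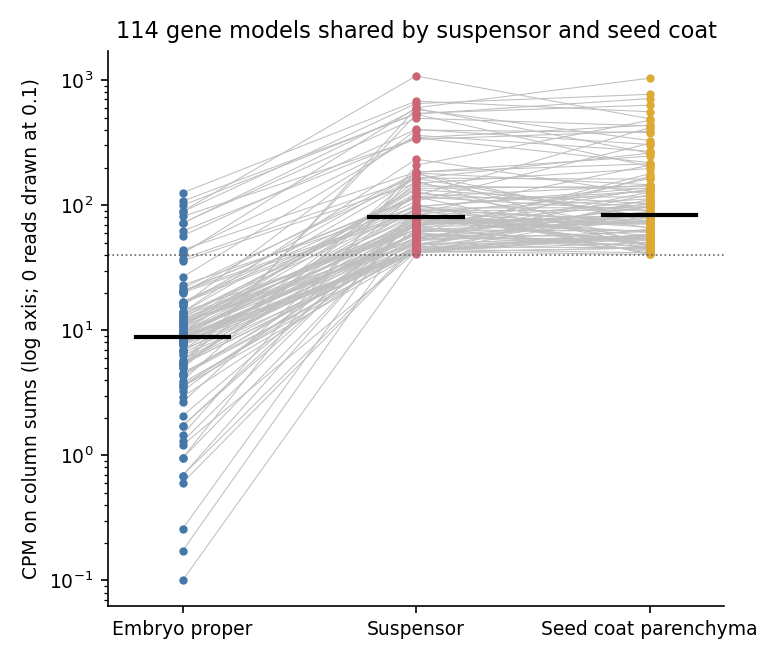
Level of each of the 114 members in the embryo proper, suspensor and seed coat parenchyma library, in CPM on a log axis. Each point is a gene model, grey lines join its values, black bars are medians (8.83, 80.1 and 84.2 CPM), the dotted line marks 40 CPM, and the gene model with 0 reads is drawn at 0.1. Every line rises from the embryo proper to the suspensor, as the rule requires, and 13 members have an embryo proper level of 40 CPM or more.

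The members took a small part of each library. In the suspensor they held 1.69% of all reads (95% Wilson interval 1.68 to 1.70%), and in the seed coat parenchyma 1.70% (1.70 to 1.71%). In the embryo proper their share was 0.191% (0.189 to 0.194%). No single gene model carried the group, since the 104 members left after removal of the 10 named next still held 1.12% of the suspensor, 1.12% of the seed coat and 0.113% of the embryo proper reads.

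The 10 members with the highest lower-of-both level stood between 336 and 649 CPM in whichever of the suspensor and seed coat libraries was lower for them. At their head was Glyma04g03020, on chromosome 4, whose embryo proper, suspensor and seed coat levels were 88.5, 649 and 769 CPM. Its suspensor to embryo proper ratio was 7.33 (6.86 to 7.85) and its seed coat to embryo proper ratio 8.69 (8.15 to 9.28). By number of reads it ranked 133 in the suspensor, 67 in the seed coat parenchyma and 2002 in the embryo proper.

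Glyma10g06250, on chromosome 10, had the highest seed coat level of all members. Its levels were 40.9 CPM (embryo proper), 601 CPM (suspensor) and 1035 CPM (seed coat), ratios over the embryo proper of 14.7 (13.4 to 16.2) and 25.3 (23.1 to 27.8). Its seed coat level was above its suspensor level by more than counting error, with a suspensor to seed coat ratio of 0.580 (0.562 to 0.600). Glyma18g39690, on chromosome 18, had the highest suspensor level of all members, at 1078 CPM, with 490 CPM in seed coat and 89.3 CPM in embryo proper. It leaned the other way, with a suspensor to seed coat ratio of 2.20 (2.13 to 2.27). These were the members at 1000 CPM or more in a library, 1 in the seed coat and 1 in the suspensor.

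Glyma08g39390, on chromosome 8, was nearly even between the high libraries and much lower in the embryo proper. Its levels were 15.8 CPM (embryo proper), 399 CPM (suspensor) and 381 CPM (seed coat), with ratios over the embryo proper of 25.3 (21.8 to 29.5) and 24.1 (20.8 to 28.1). It ranked 261 in the suspensor, 223 in the seed coat and 9804 in the embryo proper.

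The other abundant members kept a clear level in the embryo proper. Glyma18g02210 had the highest embryo proper level of the group, at 125 CPM, and reached 678 CPM (suspensor) and 558 CPM (seed coat). Glyma14g40670 stood at 108, 536 and 711 CPM in the embryo proper, suspensor and seed coat. For Glyma06g09430 the levels were 99.5, 542 and 630 CPM in the same order. Their ratios over the embryo proper lay above the 4-fold limit by differing amounts. The lowest was 4.45 (4.20 to 4.71), for Glyma18g02210 in the seed coat. The highest was 6.60 (6.22 to 7.01), for Glyma14g40670 in the seed coat.

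Glyma20g29660 stood at 72.2, 495 and 431 CPM in embryo proper, suspensor and seed coat. Glyma06g03050 stood at 62.0, 346 and 436 CPM in the same order, and Glyma17g01500 at 81.2, 336 and 390 CPM. Of these, Glyma17g01500 had the suspensor ratio nearest the limit, 4.14 with an interval (3.84 to 4.46) that reached below 4. In all, 13 of the 114 members also had an embryo proper level of 40 CPM or more, and 9 of the 10 highest were among them. These 9 were lower in the embryo proper, not absent from it. The 4-fold step allows such an embryo proper level only to members far above 40 CPM in the other libraries. The overlap with the 10 highest therefore follows in part from the rule.

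**Figure D2:**
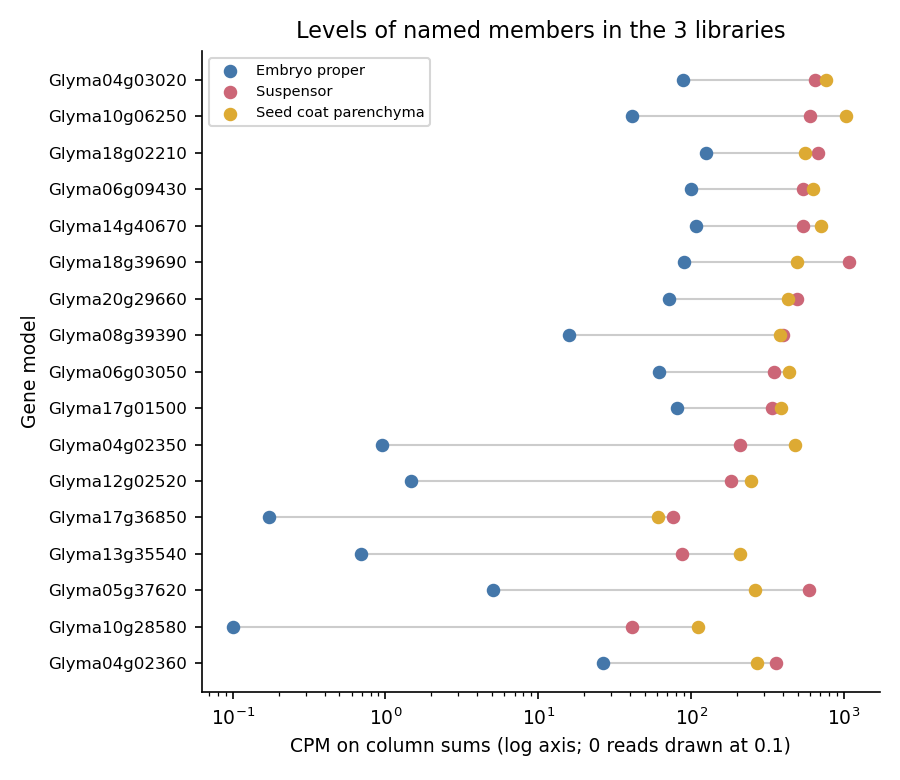
Levels in CPM (log axis) of 17 members in the embryo proper, suspensor and seed coat parenchyma. They are the 10 highest in both high libraries and the 5 with the largest smaller ratio of CPM + 1 over the embryo proper. The others are the 1 with 0 embryo proper reads (drawn at 0.1) and Glyma04g02360. Each point is 1 library; in each row the embryo proper point lies to the left, between 15.8 and 125 CPM for the 10 highest and under 6 CPM for the next 6.

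At the low end of a continuous range, some members had almost no reads in the embryo proper. Of the 114, 8 were under 1 CPM there, 19 stood at 1 to under 5 CPM, 40 at 5 to under 10, 25 at 10 to under 20, 9 at 20 to under 40 and 13 at 40 or more. The smaller of each member's ratios of CPM + 1 over the embryo proper had a median of 6.17 and ran up to 108. It was from 4 to under 5 for 28 members, from 5 to under 8 for 48, from 8 to under 16 for 20, from 16 to under 32 for 9 and 32 or more for 9.

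The largest was that of Glyma04g02350, on chromosome 4. Embryo proper reads numbered 11 (0.948 CPM), suspensor reads 1747 (209 CPM) and seed coat reads 5660 (476 CPM). Its ratio of CPM over the embryo proper was 220 (123 to 442) in the suspensor and 502 (280 to 1006) in the seed coat. Glyma12g02520, on chromosome 12, had 17 reads in the embryo proper (1.47 CPM) and reached 183 CPM (suspensor) and 247 CPM (seed coat). Its ratios were 125 (77.9 to 215) and 168 (105 to 289).

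Glyma05g37620, on chromosome 5, combined a large ratio with a high level. Embryo proper, suspensor and seed coat stood at 5.08, 594 and 261 CPM, ratios of 117 (90.4 to 154) and 51.3 (39.7 to 67.6). Its suspensor level was 2.28 times (2.18 to 2.38) its seed coat level. Glyma13g35540, on chromosome 13, leaned to the seed coat, with 0.689 CPM (embryo proper, 8 reads), 86.8 CPM (suspensor) and 209 CPM (seed coat). Its suspensor to seed coat ratio was 0.416 (0.382 to 0.452).

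The embryo proper counts of a few members were too low for a precise ratio. Glyma17g36850, on chromosome 17, had 2 embryo proper, 641 suspensor and 720 seed coat reads, levels of 0.172, 76.6 and 60.5 CPM. Its ratios were 445 (123 to 3678) and 351 (96.9 to 2905). Without the 1 CPM added, its smaller ratio, 351, was above the 220 of Glyma04g02350, so the order of the largest ratios depends on that constant. Glyma10g28580, on chromosome 10, was the only member with 0 reads in the embryo proper, with 342 suspensor reads (40.9 CPM) and 1327 seed coat reads (112 CPM). With the embryo proper set at 3 reads (0.259 CPM) the suspensor was at least 158-fold higher and the seed coat at least 431.5-fold higher at that floor. The lower ends of the counting intervals for 0 reads lay below these, at 128 and 350. The other members under 1 CPM in the embryo proper, named after their values were seen, were Glyma03g37940 (3 reads), Glyma15g14290 (7 reads), Glyma18g46020 (8 reads) and Glyma09g00710 (11 reads). They stood between 46.6 and 99.3 CPM in the suspensor and between 52.0 and 104 CPM in the seed coat.

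For all 114 members the counting interval of each ratio over the embryo proper lay above 1, which the level and the 4-fold limit of the rule bring about. For 95 of them the lower bounds of both ratios were 4 or more, and for 19 at least 1 lower bound was under 4. These counts describe the values that chose the members and test nothing.

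Between the suspensor and the seed coat parenchyma the members spread to both sides. On CPM + 1, 92 of the 114 differed by under 2-fold, 10 leaned 2-fold or more to the suspensor and 12 leaned 2-fold or more to the seed coat. The band of the rule keeps members close, and closeness was not particular to them. The quartiles of the log2 ratio were -0.45 and 0.37 for the members. They were -0.54 and 0.59 over the 2515 gene models at 40 CPM in suspensor and seed coat. The counting interval of the ratio held 1 for 20 members, lay above 1 for 40 and below 1 for 54. Every member had at least 342 suspensor and 480 seed coat reads, so even small differences can exceed counting error. Neither these counts nor those at 2-fold were computed over the 2515 gene models, so they are not read as particular to the members. Most members differed between suspensor and seed coat by more than counting error while staying within a 2-fold range. The direction of these small differences depended on how the libraries were scaled. On library totals 50 members leaned to the suspensor and 64 to the seed coat, whereas with TMM scaling, which sets libraries by the bulk of their gene models, the numbers were 90 and 24. The median log2 difference between suspensor and seed coat was -0.09 for the members on library totals and 0.44 with TMM. Over 10725 gene models at 5 CPM or more in every library the same medians were -0.21 and 0.31, and the members lay 0.12 and 0.13 above them. Over the 2515 gene models at 40 CPM in suspensor and seed coat the medians were 0.00 and 0.54, and the members differed from them by -0.10 and -0.10. Whether the group leaned to either side therefore depended on the gene models it was set against.

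Glyma02g17470, on chromosome 2, had the ratio nearest to 1 on the suspensor side, with 9.57 CPM (embryo proper), 54.3 CPM (suspensor) and 54.2 CPM (seed coat). Its suspensor to seed coat ratio was 1.00 (0.886 to 1.13). Glyma19g35460 stood at 13.96, 63.4 and 62.8 CPM in the same order, and Glyma20g23570 at 5.34, 46.4 and 45.7 CPM. On the seed coat side the nearest was Glyma16g09450, with 6.98, 94.8 and 95.7 CPM. Glyma15g07720 stood at 3.53, 62.0 and 62.7 CPM. Glyma15g34720 stood at 1.29, 90.1 and 91.2 CPM. These 6 did not differ between suspensor and seed coat beyond counting error on library totals.

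The farthest on the suspensor side was Glyma01g01000, on chromosome 1, with 3.96 CPM (embryo proper), 181 CPM (suspensor) and 47.3 CPM (seed coat), a suspensor to seed coat ratio of 3.83 (3.47 to 4.22). Glyma01g36800, on the same chromosome, followed at 3.59 (3.24 to 3.98), with levels of 5.69, 157 and 43.8 CPM. Glyma07g34290, on chromosome 7, stood at 5.52, 533 and 204 CPM, a ratio of 2.62 (2.49 to 2.75). It was the member with the highest suspensor level among these 3.

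On the seed coat side the farthest was Glyma08g16970, on chromosome 8, at 11.3 CPM (embryo proper), 119 CPM (suspensor) and 416 CPM (seed coat), a seed coat to suspensor ratio of 3.49 (3.26 to 3.74). Glyma11g29350, on chromosome 11, stood at 5.52, 50.4 and 170 CPM, a seed coat to suspensor ratio of 3.37 (3.03 to 3.75). For Glyma07g39020, on chromosome 7, the levels were 6.81, 59.3 and 178 CPM and the ratio was 3.01 (2.73 to 3.32).

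**Figure D3:**
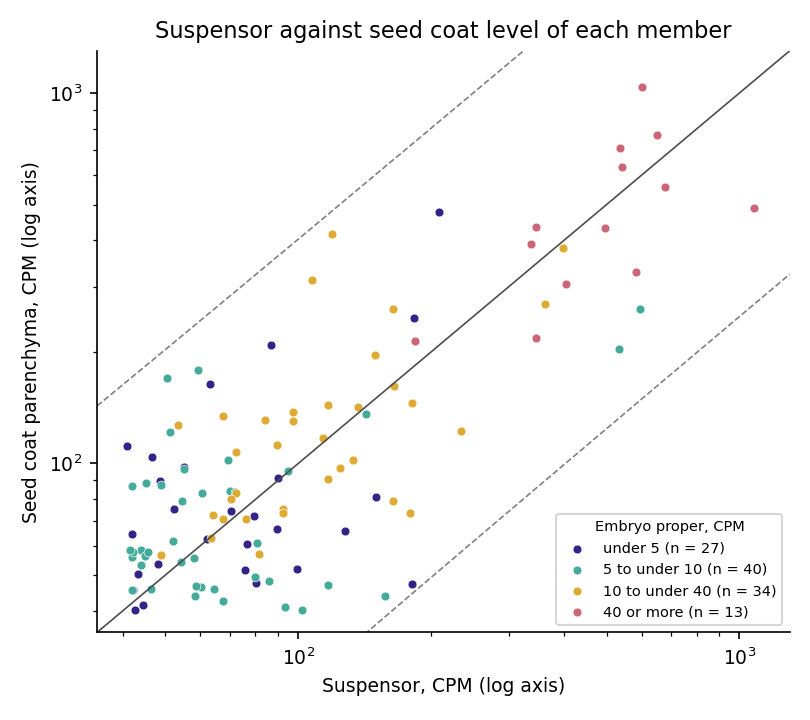
Suspensor level against seed coat parenchyma level of the 114 members, in CPM on log axes, each point 1 gene model coloured by its embryo proper level. The solid line marks equal levels and the dashed lines the limits of the rule (0.25 and 4 on CPM + 1). The 13 members with an embryo proper level of 40 CPM or more sit toward the upper right, where the 4-fold step of the rule places them. All points lie between the dashed lines, as the rule requires.

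The limits of the rule cut through a continuous range of values. Just inside the level of 40 CPM were Glyma12g29720 and Glyma12g22300, both at 40.4 CPM in the seed coat, and just outside were Glyma12g04090 and Glyma19g31410, at 39.3 and 39.2 CPM in the suspensor. Just inside the 4-fold limit were Glyma10g30070, with a smaller ratio of CPM + 1 of 4.003, and Glyma12g36290, with 4.06. Glyma05g32510 (3.99) and Glyma07g37200 (3.97) fell just outside it. At the upper end of the band, Glyma01g01000 (3.77 on CPM + 1) and Glyma01g36800 (3.53) were the last inside, and Glyma17g18320 (4.05) and Glyma11g11390 (4.57) the first outside. At the lower end, Glyma08g16970 (0.288) and Glyma11g29350 (0.301) were inside, and Glyma11g14590 (0.249) and Glyma09g39530 (0.244) outside.

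To set the size of the group against the other ways in which 2 libraries can share genes, the same rule was applied with the libraries exchanged. High levels shared by embryo proper and suspensor, with the seed coat low, were found for 204 of 2647 gene models (7.71%). High levels shared by embryo proper and seed coat, with the suspensor low, were found for 204 of 2756 (7.4%). The group shared by suspensor and seed coat was therefore the smallest on library totals, at 114. Against the set low in the suspensor that order depended on the scaling. In the order suspensor with seed coat, embryo proper with suspensor, and embryo proper with seed coat, the numbers were 111, 339 and 134 with upper-quartile scaling and 170, 293 and 242 on totals without the 50 most abundant gene models, where the group was again the smallest. With TMM they were 123, 301 and 122, a difference of 1 gene model between the smaller sets, and with DESeq2 size factors 145, 309 and 112. Under all 5 scalings tried (library totals, totals without the 50 most abundant gene models, TMM, DESeq2 size factors and upper quartile), the set low in the seed coat was larger than the group of members.

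The 3 sets also differed in how low the low library was. The smaller ratio of CPM + 1 over the low library had a median of 6.17 and an upper quartile of 10.7 for the 114 members. It had a median of 8.23 and an upper quartile of 45.9 for the 204 gene models low in the seed coat, and a median of 7.59 and an upper quartile of 15.9 for the 204 low in the suspensor. These values come from what chose each set and were not tested.

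**Figure D4:**
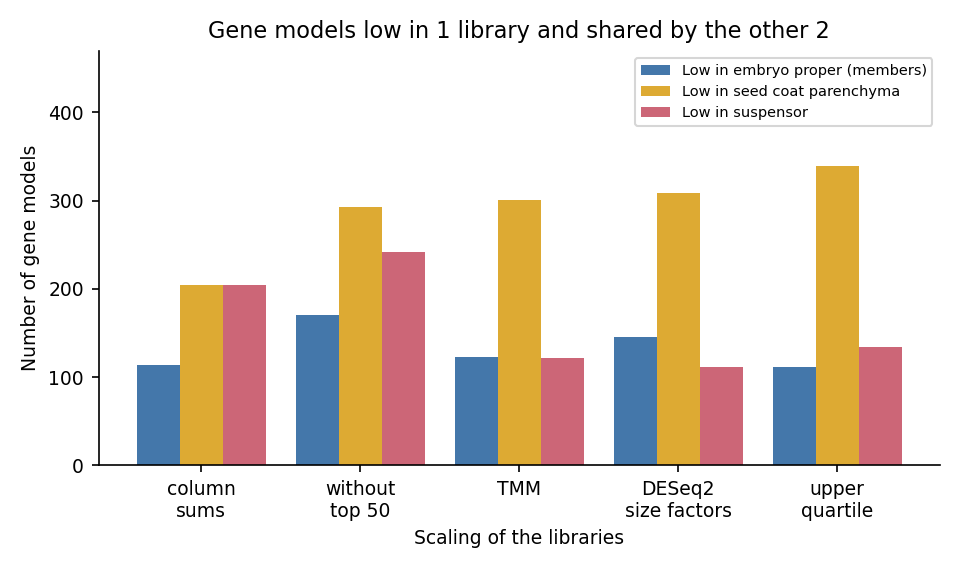
Number of gene models that met the rule with the low library being the embryo proper (the members), the seed coat parenchyma or the suspensor, under 5 scalings of the libraries. Bars start at 0; the members number 114, 170, 123, 145 and 111 from left to right, and the set low in the seed coat is larger than the members under each, at 204, 293, 301, 309 and 339.

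Most members stayed in the group under other scalings, which also brought in further gene models. Of the 114, 82 met the rule with TMM, DESeq2 size factors, upper-quartile scaling, totals without the 50 most abundant gene models and with all libraries thinned to the suspensor's depth. Among them were 8 of the 10 highest members and all 5 with the largest smaller ratios of CPM + 1 over the embryo proper. The exceptions among the highest were Glyma18g02210, which met it under 2 of these 5, and Glyma17g01500, which met it under 3. The other scalings added gene models that are not members, 36 with TMM, 55 with DESeq2 size factors, 28 with upper quartile and 58 without the 50 most abundant, and thinning added 7. With TMM 27 members dropped out. Of these, 18 fell under 4-fold for the seed coat over the embryo proper, 17 fell under 40 CPM in the seed coat and 2 left the band, and some did more than 1 of these. Glyma01g01000 and Glyma01g36800, the members that leaned most to the suspensor, met the rule under 1 of the 5.

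Position in the genome was not used by the rule. The soybean identifier gives a gene model's chromosome and its rank along it. The 114 members lay on all 20 chromosomes and none on an unplaced scaffold. Chromosome 10 held the most, 12 of the 114 (10.5%), where it held 5.29% of the gene models at 40 CPM in suspensor and seed coat. Chromosome 7 held 10 (8.77%, against 5.33%), chromosome 18 held 8 (7.02%, against 4.02%) and chromosome 16 held 7 (6.14%, against 3.54%). The fewest were the 2 on chromosome 14, and chromosome 6 held 3 (2.63%) although it held 6.60% of the gene models at that level. Chromosome 5 also held 3 (2.63%, against 5.21%), and chromosome 8 held 7 (6.14%, against 8.43%). Counts as small as these were not tested against the background.

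The 12 members of chromosome 10 were spread along it, from Glyma10g00790 to Glyma10g38760. Apart from Glyma10g06250 and Glyma10g28580, described above, they stood between 42.1 and 124 CPM in the suspensor and between 41.6 and 144 CPM in the seed coat, with 3.79 to 23.01 CPM in the embryo proper. In the whole group, a single pair of members were direct neighbours in name order. With at most 5 gene models between them there were 4 members in 2 pairs, and with at most 20 there were 14 in 7 pairs. The number of such pairs among as many other gene models was not computed, so these counts do not say whether members lay closer than others.

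**Figure D5:**
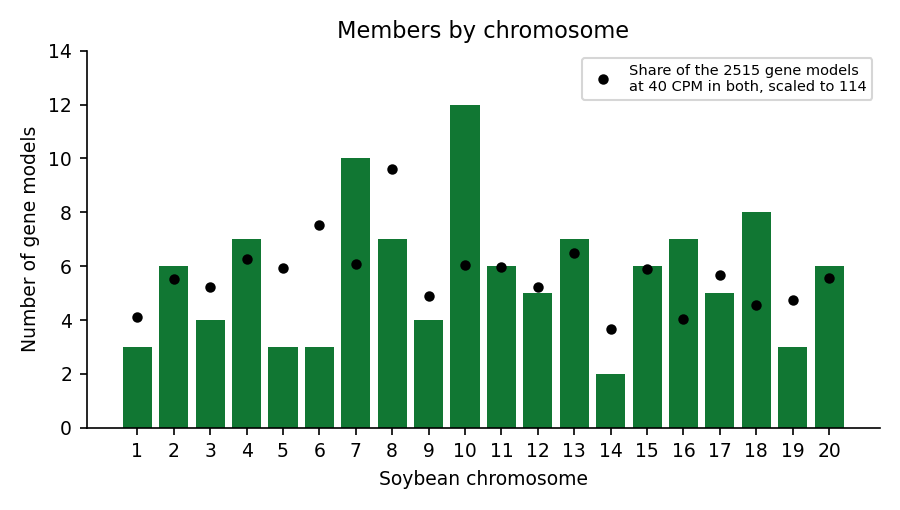
Members on each of the 20 soybean chromosomes (bars, number of gene models), with black points for the number that each chromosome would hold if the 114 followed the 2515 gene models at 40 CPM or more in suspensor and seed coat. Chromosomes 10 (12 members), 7 (10), 18 (8) and 16 (7) stand above their points. Chromosomes 8 (7), 6 (3), 5 (3), 19 (3) and 14 (2) stand below, and the other chromosomes lie nearer to their points.

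That pair was Glyma04g02350, described above as the member with the largest smaller ratio of CPM + 1 over the embryo proper, and Glyma04g02360. The second had 309 embryo proper reads (26.6 CPM), 3027 suspensor reads (362 CPM) and 3209 seed coat reads (270 CPM). Its ratios over the embryo proper were 13.6 (12.1 to 15.3) and 10.1 (9.01 to 11.4). The neighbours leaned to opposite sides, with suspensor to seed coat ratios of 0.439 (0.416 to 0.463) for Glyma04g02350 and 1.34 (1.28 to 1.41) for Glyma04g02360. How reads that match near-identical genes were assigned is not stated in the sources at hand, so the counts of close copies are uncertain. The next closest pair was Glyma07g39020 and Glyma07g39060, with 3 gene models between them.

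The gene models beside members were counted too, with members left out of the neighbours and of the background. Among the 226 that stood directly next to a member, 0 had at least 5 CPM in each of suspensor and seed coat together with a 4-fold higher level in each than in the embryo proper, against 1.11% of the 65667 other gene models on chromosomes. A count of 0 of 226 allows a share of up to 1.33%, so no difference from that background was detectable. At 5 CPM or more, 6 of the 226 (2.65%) were 4-fold or more above the embryo proper in the suspensor, against 4.03%, and 20 (8.85%) in the seed coat, against 7.81%. In the reverse direction, 24 (10.6%) had an embryo proper level of 5 CPM or more that was 4-fold or more above the suspensor, against 6.54%, and 10 (4.42%) one that far above the seed coat, against 4.15%. More of the neighbours had a read in some library, 71.7% against 59.0%, and the part of this in the shares was not tested. Among the 451 gene models 2 or 3 places away from a member, 5 (1.11%) were higher in both and 36 (7.98%) were higher in the embryo proper than in the suspensor.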

How the data were processed

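Transcripts of 3 laser-captured soybean seed compartments were sequenced, 1 library each. Per the labels' protocols, 3 to 5 ng of total RNA was amplified to cDNA, adapter-ligated product went through 15 PCR cycles, and single-end reads of 76 nt were made. The authors deposited 1 table per library with a raw count of mapped reads for each gene model, per the file headers. The submitters' processing notes name Bowtie. Which version, build and annotation were used, and how multiple hits and strand were treated, is not given in the sources used here. Without strand, reads of a gene and of an overlapping antisense gene would be counted together.

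Counts were divided by the sum of each table (CPM), 1 CPM was added, and the rule given in the report was applied. Ratios have exact Clopper-Pearson 95% intervals, shares have Wilson intervals, and a count of 0 was set at 3 reads. All cover counting error only, since reads of amplified cDNA are not independent molecules. With 1 library per group no p-value or test is given. Only the rule and the ratio interval were tried on simulated counts. Those counts held counting error alone, without the added spread of amplified cDNA. Other scalings used edgeR 4.0.16 (TMM, upper quartile) and DESeq2 1.42.0 size factors in R 4.3.3. The rest was done in Python 3.11.15 with NumPy 2.4.6, pandas 2.3.3 and SciPy 1.17.1. Named members are the 10 with the highest lower-of-both CPM, the 5 with the largest smaller ratio over the embryo proper, the 3 nearest to and farthest from a suspensor to seed coat ratio of 1 on each side, those with 0 embryo proper reads, direct neighbours, and those next to each limit. The members and this rule were chosen with earlier results of these data known. Lists by product name could not be applied, because 0 of 66210 identifiers matched the 59048 genes of the reference table (Glycine_max_v4.0).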

Additional observations from a re-analysis of the deposited data

How the results depend on the processing

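No paired analysis was possible because the labels give 1 library for every compartment. The number of members moved by over 1.5 times only where the rule itself was changed. It was 278 at a level of 20 CPM, 41 at 80 CPM, 799 with no level, 376 at 2-fold and 38 at 8-fold. Under the other planned settings it lay between 89 (5 CPM added) and 170 (totals without the 50 most abundant gene models). The set low in the seed coat rose from 204 to 309 with DESeq2 size factors and 339 with upper-quartile scaling. The set low in the suspensor fell from 204 to 122 with TMM, 112 with DESeq2 size factors and 134 with upper-quartile scaling. For the fixed 114 members, the median log2 difference of suspensor over embryo proper was 3.17 with TMM, 3.27 with DESeq2 size factors, 3.11 with upper quartile, 3.07 without the 50 most abundant, 2.99 with 0.5 CPM added and 2.47 with 5 CPM added. For seed coat over embryo proper it was 2.68, 2.72, 2.58, 2.91, 3.03 and 2.57, in the same order. For suspensor over seed coat the median turned from -0.09 to 0.44, 0.50, 0.47 and 0.10 under the first 4, because these scalings raise the suspensor against the seed coat. Without the 50 most abundant gene models the members took 0.238% (embryo proper), 2.30% (suspensor) and 2.02% (seed coat) of the remaining reads. Depth limits the ratios of the 11 members with under 20 embryo proper reads.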

Other observations

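Members on chromosomes 4 and 6 included 2 pairs at nearly the same place in the order of gene models of their chromosomes, noticed after their values were seen. Glyma04g03020 and Glyma06g03050 were 3 steps apart in that order. Their embryo proper levels were 88.5 and 62.0 CPM, their suspensor levels 649 and 346 CPM and their seed coat levels 769 and 436 CPM. Glyma04g09290 and Glyma06g09430 were 18 steps apart, with embryo proper levels of 71.4 and 99.5 CPM, suspensor levels of 584 and 542 CPM and seed coat levels of 328 and 630 CPM. On library totals both gene models of the first pair were higher in the seed coat than in the suspensor, and those of the second pair leaned to opposite sides. As described above, the direction of small differences between these libraries depended on the scaling. Glyma04g09290 met the rule under 2 of the 5 settings of scaling and thinning, and the others of these pairs under all 5. The files do not say whether either pair are copies of each other, and this was not tested.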
